A study of Mus musculus with 31 samples.

Results

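The genes of mitochondrial protein import and of the chaperones that fold imported proteins were described on 31 mouse arrays. They were taken by symbol: every probe set with a single gene symbol of the Timm or Tomm series, and those of Hspd1, Hspe1, Hspa9, Trap1, Grpel1, Grpel2, Chchd4, Gfer, Pam16, Samm50, Mtx1, Mtx2, Pmpca, Pmpcb and Oxa1l. This gave 38 of 18193 genes, measured by 79 of 45037 probe sets. The rule reads symbols and no signal, although the family itself was picked with earlier results of these data known. Dnajc19, which also belongs to the import motor, is on the array only with several symbols and was not counted. In each comparison 36 of the 38 genes were bright enough to be tested. The 2 others, Timm8a2 and Tomm20l, stayed below a signal of 30, taken as background, on every array.

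Tissue came from K5ΔNβcat mice, whose basal mammary cells make a stabilized β-catenin from the keratin 5 promoter. Their lesions comprised 11 tumors, 5 large and 5 small hyperplasias. A further 4 samples were mammary tissue of mice labelled as control, with no further genotype given. Basal cells were sorted by CD24 and CD49f, with CD45- and CD31-positive cells left out, as 3 pools from control and 3 pools from K5creMycL/L mice. In the latter, Cre driven by the keratin 5 promoter deletes Myc in basal cells, and no β-catenin transgene is named for them. The labels give C57BL6 as the strain of all groups, whereas the methods name a mixed 129SV/C57BL6 background. Ages, and whether tissue samples came from separate animals, were not given, and a p-value given here reflects the spread among the samples alone, which may be technical. Tissue and sorted cells were labelled with different kits and were not compared with each other.

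Nearly all mitochondrial proteins are made in the cytosol and pulled across the mitochondrial membranes. The TOM complex of the outer membrane is the common entry gate, with receptors that bind the incoming chains and a channel. Small TIM chaperones then carry membrane proteins across the intermembrane space, and the TIM23 translocase with its motor draws chains with a cleavable presequence into the matrix. There the presequence is removed and the Hsp60 chaperonin, a chamber made of Hspd1 with Hspe1 as its lid, folds part of them. Myc is known as an activator of many genes of growth and mitochondrial biogenesis, and it binds the E-box CACGTG.

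The sequences shown are those upstream of members described below, from RefSeq (GRCm38.p6), 5′ to 3′ on the strand given, with capitals for a motif. Promoter windows, from 250 bases before the start to 50 from it, were matched for 33 of the 38 genes (36 windows). Hspd1 and Hspe1 lie head to head on chromosome 1, with 215 bases between the start of Hspe1 and the downstream start of Hspd1, at base 55087932. The upstream start of Hspd1, at base 55088243, lies within Hspe1, so that from there the genes overlap. The capitals in that stretch are a pair of overlapping matches to the heat shock element, taken as GAA, TTC and GAA in a row with NN between neighbours and read on both strands. The stretches of Tomm20, the member with the largest difference between tumors and large hyperplasias, and of Timm8a1 show an E-box in capitals. That of Timm10, the member with the largest difference in Myc-deficient cells, covers 30 bases around the E-box that follows its start.
Hspe1 and Hspd1, chr1:55087933-55088147 (+): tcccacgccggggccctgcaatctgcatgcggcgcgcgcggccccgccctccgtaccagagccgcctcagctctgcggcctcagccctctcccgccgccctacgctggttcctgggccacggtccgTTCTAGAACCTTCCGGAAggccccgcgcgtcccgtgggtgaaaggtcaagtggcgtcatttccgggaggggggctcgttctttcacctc
Tomm20, chr8:126945922-126946171 (-): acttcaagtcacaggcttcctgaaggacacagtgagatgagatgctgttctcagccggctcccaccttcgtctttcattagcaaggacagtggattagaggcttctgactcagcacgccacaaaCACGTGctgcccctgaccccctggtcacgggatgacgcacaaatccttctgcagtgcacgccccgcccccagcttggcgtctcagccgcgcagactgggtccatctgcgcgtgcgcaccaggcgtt
Timm8a1, chrX:134541671-134541920 (-): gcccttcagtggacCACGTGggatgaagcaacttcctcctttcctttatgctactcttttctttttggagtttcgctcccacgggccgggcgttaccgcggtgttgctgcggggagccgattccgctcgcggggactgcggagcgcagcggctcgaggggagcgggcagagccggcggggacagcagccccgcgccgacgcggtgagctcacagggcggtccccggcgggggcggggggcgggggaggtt
Timm10, chr2:84827037-84827066 (+): ccggaagtgaccCACGTGcttcttatttcg

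An E-box was present in 6 of the 36 windows (16.7%, against 7.15% of all 32851 windows), those of Hspd1, Timm10, Timm9, Timm8a1, Tomm20 and Tomm20l. The E-boxes of Tomm20 and Timm10 began 126 bases before and 29 bases after the start. Those of Timm8a1 began 236 bases before and 25 bases after its start, and only the former lies in the stretch shown. The heat shock element was found in 3 windows (8.33%, against 0.603% of all), Hspe1, the downstream start of Hspd1, and Timm9. Since the windows of Hspe1 and Hspd1 overlap, both hold the same bases. CCGGAAGT, the core of sites for the respiratory gene factor GABP, was in 8 windows (22.2%, against 3.89%), those of Mtx2, Pmpcb, Timm10, Timm10b, Timm23, Timm29, Timm8a2 and Tomm70a. In the Timm10 stretch it stands before the E-box, with 4 bases between them. The palindromic site of NRF1, the other factor known for respiratory genes, was in 0 of the 36 windows and in 0.971% of all. All motifs were searched on both strands.

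The 6 groups were first set against cell type markers. In sorted pools the 12 basal markers summed to signals of 27470 to 36760, and 8 of 10 T and B cell markers, Ptprc among them, stayed below 30 on all pools. Markers of other cell types were seen there too. Luminal markers summed to 6787 to 7733 in control and 7471 to 10230 in Myc-deficient pools. Fibroblast markers summed to 2692 to 3241 and 2514 to 3899, and adipocyte markers to 1370 to 3631 and 1561 to 4613. In control tissue 11 adipocyte markers had sums of 68560 to 78640. These ranged from 37750 to 49950 in small and from 28280 to 35150 in large hyperplasias. In tumors they were 1808 to 10810, and all 11 markers fell, with Lep and Acvr1c below 30 on every array. The sum of basal markers was 5438 to 6859 in control tissue and 11890 to 18000 in tumors, and that of macrophage markers 6504 to 9835 and 7428 to 12860. Macrophage markers were highest in large hyperplasias (12700 to 16940, 10 of 11 called higher than in control tissue), as were T and B cell markers (1311 to 2237, 8 of 9). All 11 endothelial markers fell in tumors, from sums of 2809 to 3027 to sums of 919 to 1730. Luminal markers had sums of 7147 to 10080 in control tissue and 3035 to 8904 in tumors, and fibroblast markers 23740 to 28010 and 12070 to 27550. T and B cell markers stood at 499 to 785 in control tissue and 593 to 1584 in tumors, and skeletal muscle markers at 651 to 1894 and 116 to 4683. In control tissue 7 of the 8 skeletal muscle markers stayed below 30 on every array, so their sum there comes mainly from Acta1. Tumors described below as high in these markers had sums above all control samples. These shifts run alongside the tissue differences given here, and their part in them was not tested. Fewer cells of a type and less RNA per cell cannot be told apart in tissue.

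By their brightest probe sets, the outer membrane receptors rose in tumors. Most genes of the inner membrane translocase and its motor fell, as did Pmpcb and Trap1 in the matrix. Other probe sets of Tomm20, Tomm22, Tomm70a, Timm44 and Hspa9 did not all follow. Relative to control tissue, 8 of the 36 genes rose and 17 fell (limma on all tissue arrays, adjusted p under 0.05). This is 69.4% of the tested members, whereas 71.8% of all 11831 genes tested were called, 35% higher and 36.8% lower. The members' median log2 difference was -0.20, against -0.02 for all genes. In large hyperplasias 4 rose and 17 fell (58.3%, with 49.7% of all genes called, 26.8% higher and 22.9% lower), and the median was -0.26 against 0.04. In small hyperplasias 5 rose and 7 fell (33.3%, with 34.6% of all genes called, 19.3% higher and 15.3% lower). The 3 comparisons share the control samples. In 7 members all tumors stood above all control samples and in 11 members below them, patterns found in 21.6% and 23.7% of all genes. For large hyperplasias the counts were 2 and 11, with 22.4% and 19.3% of all genes.

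The methods' own rule, a ratio of medians over 2, was met in tumors by Grpel2 and Tomm20 (higher) and by Pmpcb and Trap1 (lower), 5.56% of the members in each direction, with 16.2% and 16.4% of all genes. In the other tissue comparisons 0 members met it in either direction. Of all genes, 11.8% were higher and 7.61% lower by it in the large lesions, and 7.81% and 2.98% in the small ones, each against control tissue. It was met by 5.85% and 9.25% between tumors and large hyperplasias, and by 2.34% and 1.5% between large and small hyperplasias. Of the 25 members called in tumors against control tissue, 22 remained called whichever single sample was left out. The exceptions were Timm10, Mtx1 and Tomm34. By the unequal-variance test, calls in tumors were lost for Grpel1 (adjusted p = 0.2), Timm10 (0.106), Timm29 (0.0801), Tomm70a (0.0799) and Timm13 (0.0606). Within tumors the coefficient of variation of the 36 genes ranged from 6.28% for Tomm7 to 21.5% for Timm29, with a median of 9.34%.

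**Figure D1:**
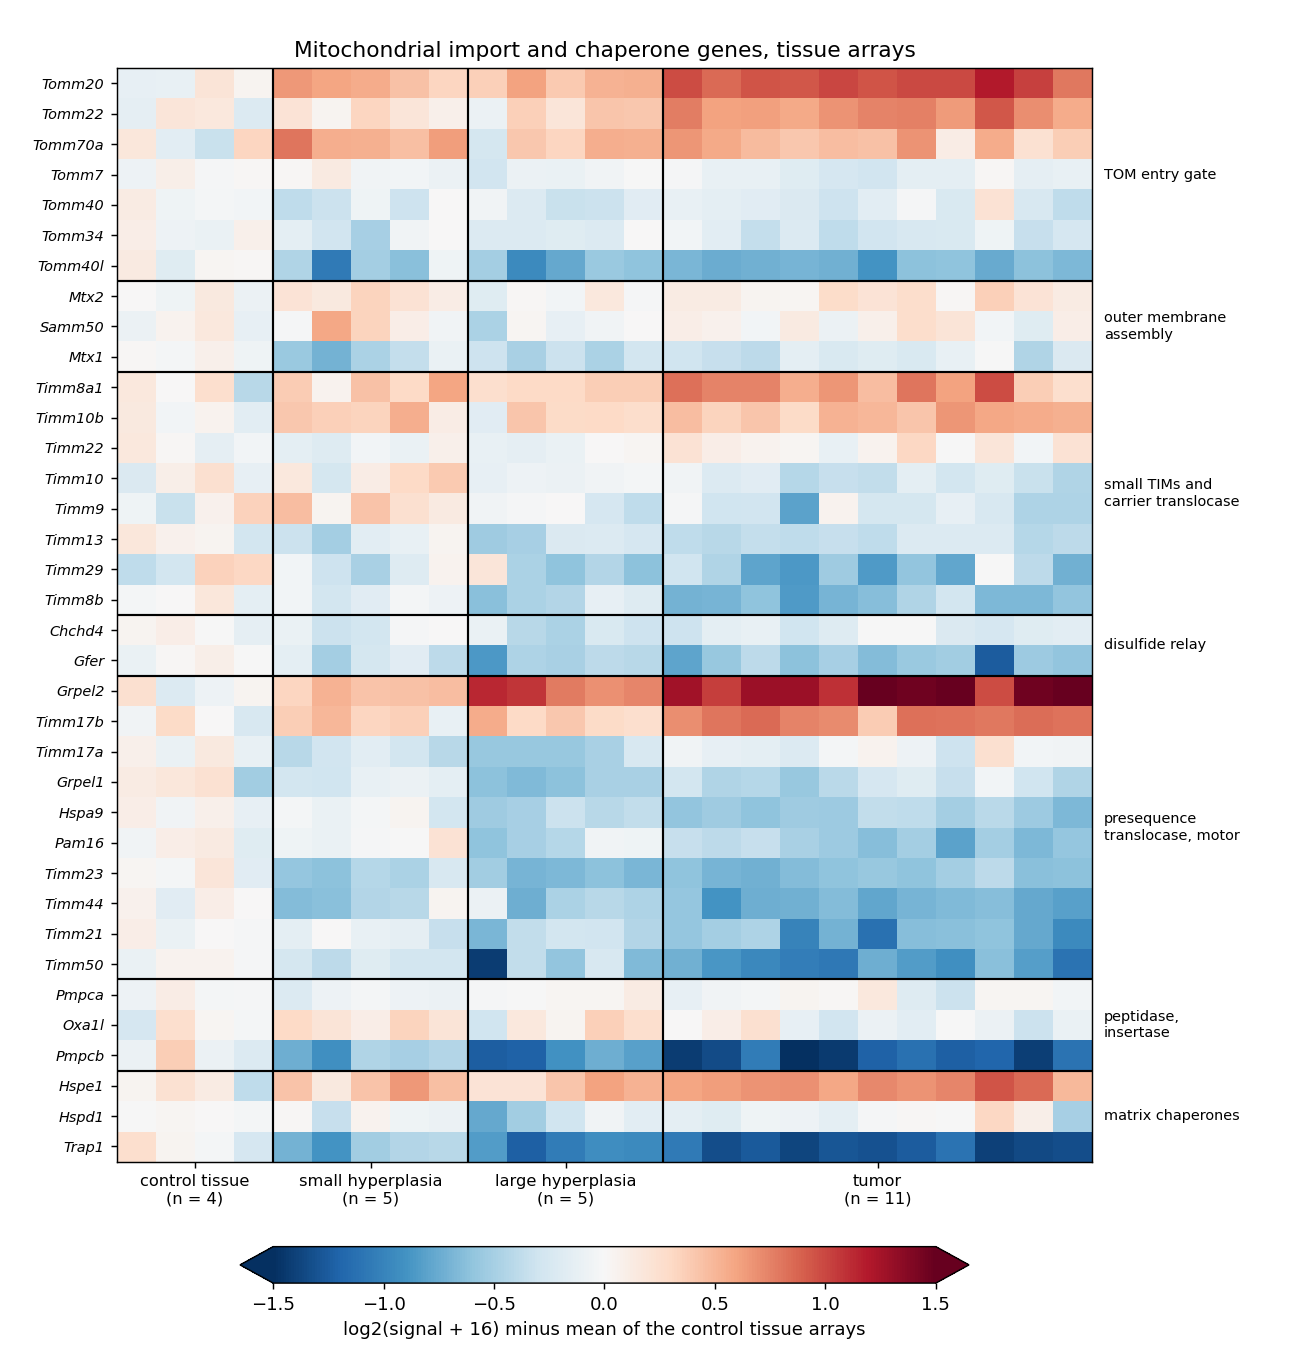
Each row is a member gene and each column a tissue array, grouped by tissue and by the role of the protein; colour gives log2(signal + 16) minus the mean of the 4 control arrays, on a scale that ends at 1.5 in both directions. Tomm20, Tomm22 and Grpel2 are red and Trap1, Pmpcb and Timm23 blue in all 11 tumors, and 2 genes that were not tested are left out.

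At the entry gate, 3 of 7 tested genes rose in tumors and 2 fell. Tomm20, the main receptor for presequences, had signals of 1496, 1515, 1877 and 1678 in control tissue and of 2850 to 3747 in tumors (median 3225). The small hyperplasias stood at 2040 to 2577 and the large ones at 2091 to 2489, so that control tissue, hyperplasias and tumors did not overlap. The log2 difference of tumors from control tissue was 0.97 ± 0.07 (SE, adjusted p = 2.53e-11), and that from large hyperplasias 0.49 ± 0.07 (adjusted p = 2.96e-06).

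Tomm22, the central receptor that holds the complex together, had signals of 265, 334, 328 and 252 in control tissue, of 275 to 395 in large hyperplasias and of 438 to 572 in tumors (median 477). Tumors stood above both other groups (0.69 ± 0.09 and 0.43 ± 0.08 on the log2 scale), whereas hyperplasias and control tissue overlapped. Large hyperplasias missed the threshold against control tissue (0.25 ± 0.11, adjusted p = 0.0514) and passed it when control sample 2 or 3 or large hyperplasia 1 was left out (adjusted p from 0.00732 to 0.0324), under quantile normalization (0.0314) and with signals under 30 set to 30 (0.0473). The dimmer probe set of Tomm22 was not called in tumors (-0.11 ± 0.16), with 145 to 215 in control tissue and 103 to 203 in tumors. Tomm70a, the receptor for carrier proteins, had signals of 242, 189, 166 and 272 in control tissue and of 232 to 351 in tumors (median 301). Its difference was 0.45 ± 0.13 (adjusted p = 0.0034) with overlapping groups, and of its 3 other probe sets the dimmest was not called. Small hyperplasias had 297 to 384, above all control samples (0.59 ± 0.15), and large ones 175 to 318, called higher without large hyperplasia 1 (adjusted p = 0.00713) or control sample 4 (adjusted p = 0.0332).

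The channel did not follow its receptors. Tomm40, the pore itself, had signals of 311, 271, 278 and 277 in control tissue and of 215 to 332 in tumors (median 251), a difference of -0.16 ± 0.09 that was not called (adjusted p = 0.111), but was without tumor 9 (adjusted p = 0.0299) and by the unequal-variance test (adjusted p = 0.0494). Its paralog Tomm40l fell, from 223, 177, 208 and 205 to 101 to 128 in tumors (-0.70 ± 0.11, adjusted p = 6.36e-06) without overlap, whereas its dimmer probe set was not called (-0.01 ± 0.08). Tomm34, a cytosolic cochaperone of import, fell slightly (-0.23 ± 0.08), a call lost without control sample 1 (adjusted p = 0.0607) or 4 (adjusted p = 0.0546).

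Probe sets of 2 genes of the gate disagreed. Beside the brightest probe set of Tomm20, 4 others rose in tumors by 0.34 to 1.31 on the log2 scale, and the remaining one fell by 0.61 (median signals of 126 in control tissue and 73.1 in tumors). Tomm7, a small subunit of the gate, had signals of 615, 691, 641 and 655 in control tissue and of 529 to 657 in tumors (median 592) with its brightest probe set, which was not called (-0.13 ± 0.07). It was called without tumor 9 (adjusted p = 0.0431), under quantile normalization (0.0305) and by the unequal-variance test (0.0334). Another probe set fell by 0.45 and the last one bright enough to test rose by 0.34.

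Of the 3 genes that insert proteins into the outer membrane, Mtx1 fell in tumors (-0.23 ± 0.09, adjusted p = 0.0651 without control sample 3) and in both hyperplasias, and its dimmer probe set was not called in tumors (-0.19 ± 0.09). Its partner Mtx2 was not called in any of these (0.16 ± 0.07 in tumors), although it was in tumors without control sample 3 or tumor 3, 4 or 8 (adjusted p from 0.0274 to 0.0463). Samm50, the core of the assembly complex, depended on the probe set: the brightest one was not called (0.05 ± 0.10), and another fell by 0.80 in tumors and by 0.69 in large hyperplasias (adjusted p = 1.2e-09 and 7.06e-07).

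Among the 8 tested small TIM chaperones and carrier translocase genes, 2 rose and 4 fell in tumors. Timm8a1, which with Timm13 forms one of the chaperone complexes, had a difference of 0.64 ± 0.12 and Timm10b, a chaperone docked at the carrier translocase, one of 0.48 ± 0.09. Timm8b (-0.62 ± 0.09), Timm29 (-0.57 ± 0.16), Timm13 (-0.33 ± 0.09) and Timm10 (-0.27 ± 0.10) fell. Timm9 and Timm10 build the main chaperone hexamer. Timm10 had signals of 254, 316, 354 and 272 in control tissue and of 212 to 286 in tumors (median 243), with overlap, and its call was lost without control sample 2 (adjusted p = 0.0586) or 3 (adjusted p = 0.116). Timm9 was close to background, with 52.8, 40.9, 59.3 and 75.2 in control tissue and 25.3 to 58.7 in tumors (median 43.9). Its difference of -0.29 ± 0.13 was not called (adjusted p = 0.0543), but was with tumor 1, 5 or 8 or control sample 2 left out (adjusted p from 0.0149 to 0.0471) or signals under 30 set to 30 (0.0473). Timm22, the carrier channel, was not called in tissue (0.09 ± 0.08 in tumors against control tissue). Against large hyperplasias it was called higher in tumors under quantile normalization (adjusted p = 0.0251), by the unequal-variance test (0.0247) and without tumor 5 (0.0448).

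Of the disulfide relay, which traps small TIM proteins by oxidation, Gfer fell in tumors (-0.63 ± 0.11) and large hyperplasias (-0.52 ± 0.13), and Chchd4 in large hyperplasias (-0.31 ± 0.09) with a value of -0.17 ± 0.08 in tumors, called without control sample 4 or tumor 6 or 7 (adjusted p from 0.0379 to 0.0454).

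The presequence translocase and its motor had the most falls, 7 of 10 genes in tumors and 8 of 10 in large hyperplasias, and 2 rises in each. Timm23, the channel, had signals of 1521, 1460, 1697 and 1324 in control tissue and of 897 to 1134 in tumors (median 978). Small hyperplasias stood at 972 to 1265 and large ones at 914 to 1036. All lesions stood below all control samples, and tumors and large hyperplasias did not differ by the test (0.04 ± 0.07, adjusted p = 0.622). Timm50, the receptor of the translocase, had signals of 195, 219, 218 and 208 in control tissue and of 88.6 to 130 in tumors (median 107), a difference of -0.88 ± 0.13. Timm21, which links the translocase to the outer gate, had 241, 207, 225 and 221 in control tissue and 93.9 to 158 in tumors (median 138), a difference of -0.72 ± 0.11.

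Timm44, the anchor of the motor, had signals of 441, 373, 454 and 425 in control tissue and of 220 to 277 in tumors (median 251). Neither group overlapped the other, and the difference was -0.72 ± 0.10 (adjusted p = 1.19e-06). A second probe set of Timm44 fell too (-0.46 ± 0.09), and the other, 194 to 369 in control tissue and 239 to 304 in tumors, was not called (0.09 ± 0.14). Hspa9, the mitochondrial Hsp70 that drives the motor, had signals of 966, 871, 954 and 829 in control tissue, of 621 to 721 in large hyperplasias and of 562 to 695 in tumors (median 619). The differences were -0.43 ± 0.08 and -0.52 ± 0.07, again without overlap. The next probe set of Hspa9, with 364 to 574 in control tissue and 405 to 604 in tumors, was not called (0.12 ± 0.10) and was higher in tumors than in large hyperplasias (0.29 ± 0.10, adjusted p = 0.0136). Its 2 dimmest ones were not called in tumors either (-0.39 ± 0.20 and -0.25 ± 0.16), so that the fall of Hspa9 rests on 1 probe set. Pam16, a regulator of the motor's J protein, fell as well (-0.53 ± 0.10 in tumors).

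Both rises of the motor belonged to genes with a close paralog. Grpel2, a nucleotide exchange factor of Hspa9, had signals of 126, 88.6, 98.2 and 108 in control tissue and of 222 to 368 in tumors (median 278). Small hyperplasias stood at 135 to 156 and large ones at 178 to 248. Signals were higher from control tissue over small and large hyperplasias to tumors, and large hyperplasias and tumors overlapped. The log2 difference of tumors was 1.33 ± 0.12 (adjusted p = 2.41e-10), that of large hyperplasias 0.88 ± 0.13 and that of small ones 0.44 ± 0.13 (adjusted p = 0.0148, and 0.0592 without control sample 2). Its paralog Grpel1 fell in tumors (-0.34 ± 0.10) and large hyperplasias (-0.57 ± 0.12), although control sample 4 (359, against 574 to 616 in the others) lay within the range of the lesions. By the unequal-variance test neither fall was called (adjusted p = 0.2 and 0.0979). Timm17b, a subunit of the translocase, had signals of 124, 161, 129 and 106 in control tissue and of 173 to 244 in tumors (median 235), a difference of 0.75 ± 0.10. This too rests on 1 probe set, since the other, with 138 to 165 in control tissue and 132 to 178 in tumors, was not called (-0.01 ± 0.08). Its paralog Timm17a was not called in tumors (-0.07 ± 0.08), and fell in large (-0.49 ± 0.10) and small hyperplasias (-0.31 ± 0.10, adjusted p = 0.0612 without control sample 3).

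In the matrix, Pmpcb and Trap1 showed the largest falls of the family by their brightest probe sets. Pmpcb, the catalytic subunit of the presequence peptidase, had signals of 802, 1107, 798 and 738 in control tissue, 443 to 621 in small and 352 to 506 in large hyperplasias, and 291 to 403 in tumors (median 354). The log2 difference of tumors was -1.28 ± 0.11 (adjusted p = 3.85e-10). Its partner Pmpca was not called with the brighter probe set (-0.04 ± 0.07), and the other fell by 0.46. Oxa1l, which inserts proteins into the inner membrane, was not called with its brightest probe set (-0.07 ± 0.11). A dimmer one stood at 55.2 to 58 in control tissue and at 34.1 to 50.2 in tumors, without overlap. Trap1, the mitochondrial Hsp90, had signals of 745, 644, 610 and 521 in control tissue, 328 to 463 in small and 257 to 341 in large hyperplasias, and 227 to 290 in tumors (median 242). Control tissue overlapped no lesion, and the difference of tumors was -1.28 ± 0.09 (adjusted p = 8.34e-12). The dimmer probe set of Trap1 did overlap, with 130.8 to 177 in control tissue and 112.5 to 143.7 in tumors.

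The subunits of the Hsp60 chaperonin differed. Hspe1, the lid, had signals of 726, 831, 772 and 538 in control tissue, 782 to 1122 in small and 819 to 1086 in large hyperplasias, and 994 to 1374 in tumors (median 1141). Its difference in tumors was 0.69 ± 0.10 (adjusted p = 1.98e-06). In large and small hyperplasias it was 0.39 ± 0.12 and 0.42 ± 0.12, and both calls were lost without control sample 4 (adjusted p = 0.0625 and 0.0557). Hspd1, the chamber, had 1488, 1516, 1488 and 1461 in control tissue, 1167 to 1546 in small and 867 to 1439 in large hyperplasias, and 1052 to 1843 in tumors (median 1420). It was not called in tumors (-0.07 ± 0.11, adjusted p = 0.619). In large hyperplasias it fell (-0.36 ± 0.13, adjusted p = 0.0264), a call that was lost when large hyperplasia 1 (adjusted p = 0.0937) or 2 (adjusted p = 0.0659) or control sample 2 (adjusted p = 0.0545) was left out.

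Over the 11 tumors the signals of Hspd1 and Hspe1 varied together. Pearson's r was 0.946 (permutation p = 1e-05, the smallest that 100000 resamples can give) and Spearman's rho 0.873 (permutation p = 0.00083), for 1 relation examined. Without the 2 tumors farthest from the median of Hspd1, r was 0.912 (n = 9). Both signals come from the same arrays and share their scaling.

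**Figure D2:**
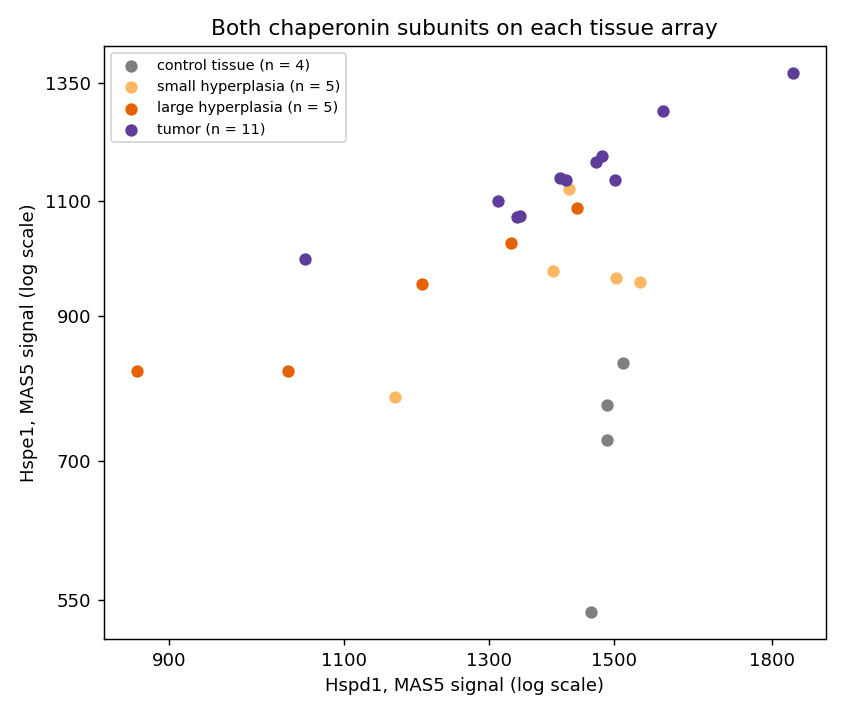
Signals of Hspd1 (x axis) and Hspe1 (y axis), both on log scales, with 1 point per tissue array coloured by group. The 11 tumors form a rising band (r = 0.946), and the 4 control samples lie below it, at Hspd1 signals of 1461 to 1516 and Hspe1 signals of 538 to 831.

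For 4 pairs of paralogs or partners, chosen after their values were seen and so given with no test, the log2 ratio of the brightest probe sets within an array was compared between groups. The change of the ratio, not its level, can be interpreted, since probe sets differ in brightness. The ratio of Grpel2 to Grpel1 was higher in tumors than in control tissue by 1.67, that of Hspe1 to Hspd1 by 0.75 and that of Timm17b to Timm17a by 0.82. The ratio of Tomm40l to Tomm40 was lower, with a difference of -0.54. In large hyperplasias the changes were 1.45, 0.75, 0.85 and -0.46 in the same order of pairs. The values for Timm17b and Tomm40l hold for the probe set used, since the other probe set of each was not called.

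**Figure D3:**
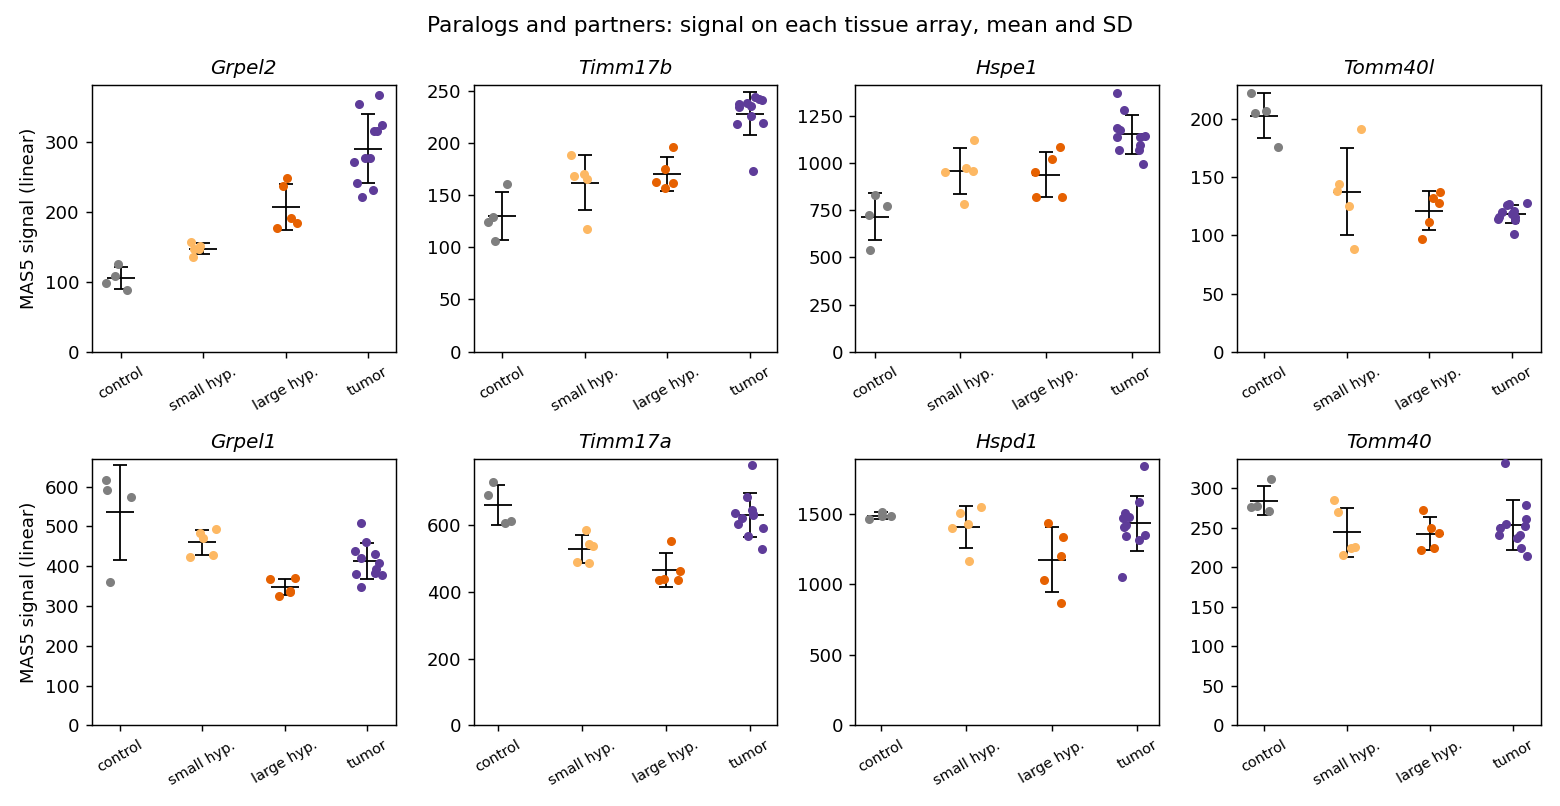
Signal (linear scale from 0) of 4 pairs of paralogs or partners on each tissue array, with the mean and SD of each group (control n = 4, small and large hyperplasia n = 5 each, tumor n = 11). Grpel2, Timm17b and Hspe1 in the upper row rise from control tissue to tumors (log2 differences of 1.33, 0.75 and 0.69) and Tomm40l falls (-0.70), while Grpel1 below falls by 0.34 and Timm17a, Hspd1 and Tomm40 were not called in tumors.

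Between tumors and large hyperplasias, which both carry the transgene, 11 members were higher in tumors and 5 lower (44.4% of those tested, with 54.6% of all genes called, 22.7% higher and 31.9% lower). The members' median difference was 0.02, against -0.07 for all genes. In the same comparison 10 of 10 tested adipocyte, 7 of 8 T and B cell and 7 of 11 macrophage markers fell and 4 of 6 skeletal muscle markers rose, and their part was not tested. Higher in tumors were Tomm20, Grpel2 (0.45 ± 0.11), Tomm22, Timm17a (0.42 ± 0.08), Timm17b (0.39 ± 0.09), Timm8a1 (0.32 ± 0.11), Hspe1 (0.30 ± 0.09), Hspd1 (0.29 ± 0.10), Timm10b (0.26 ± 0.08), Grpel1 (0.24 ± 0.10) and Mtx2 (0.17 ± 0.07). Lower were Timm21 (-0.31 ± 0.10), Pmpcb (-0.29 ± 0.11), Timm44 (-0.29 ± 0.10), Trap1 (-0.28 ± 0.09) and Timm8b (-0.25 ± 0.09). The dimmer probe set of Trap1 had means of 123.5 in large hyperplasias and 124.5 in tumors. Probe sets of Tomm20 and of Tomm7 were called in opposite directions in this comparison too. Under quantile normalization the split was 9 higher and 7 lower, and the share of calls in the higher direction over all probe sets moved from 38.9% to 49.3%. The calls of Hspd1 and Hspe1 were lost with it (adjusted p = 0.159 and 0.131). Of these 16 calls, 9 remained whichever single sample was left out. Those of Hspd1 (adjusted p = 0.121 without large hyperplasia 1 and 0.0663 without 2), Timm44 (0.0836 without 1), Timm10b (0.0776 without 1), Timm8b (0.0846 without 4 and 0.0675 without 5) and Pmpcb (0.053, 0.0892 and 0.0705 without 3, 4 or 5) rested on single large hyperplasias. Grpel1 lost its call when any one of 8 samples was left out, and Mtx2 when any one of 9 was. Without 4 tumors high in skeletal muscle markers, left out after seeing the data, 3 members were lower and 11 higher.

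From small to large hyperplasia, 1 of the 36 genes rose and 4 fell (13.9%, with 9.64% of all genes called, 4.1% higher and 5.55% lower). Grpel2 rose by 0.44 ± 0.13 (adjusted p = 0.0277). Trap1 (-0.40 ± 0.10), Grpel1 (-0.39 ± 0.11), Hspa9 (-0.35 ± 0.07) and Pam16 (-0.33 ± 0.11) fell, so that 3 of the 4 falls belong to the import motor. The calls of Trap1 and Hspa9 remained whichever single sample was left out. That of Grpel1 was lost when any one of 5 of the 10 samples was left out, and that of Pam16 when any one of 7 was. The rise of Grpel2 was not called when small hyperplasia 1 or 4 or large hyperplasia 1 or 2 was left out (adjusted p from 0.0557 to 0.086).

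Other genes of mitochondrial import and upkeep were counted in tumors relative to control tissue, where 35% of all genes were called higher and 36.8% lower. Of 8 genes that shape the inner membrane, 0 rose and 7 fell, among them Immt (-1.05 ± 0.09), the scaffold of the cristae junctions, and its partners Chchd6 (-0.93 ± 0.19), Chchd3 (-0.80 ± 0.11) and Apool (-0.71 ± 0.08). Of 12 presequence peptidases and quality-control proteases, 2 rose and 6 fell. Clpp (-1.09 ± 0.08) and Lonp1 (-0.99 ± 0.10), both matrix proteases, fell, and Yme1l1, a protease of the inner membrane, rose (0.94 ± 0.13). Of 15 further import and folding factors, 2 rose and 9 fell, among them Dnajc15 (-1.61 ± 0.12), a J protein of the import motor, whereas Ppif, the matrix prolyl isomerase, rose (1.44 ± 0.20).

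Of the cytosolic chaperones that hand proteins to the receptors, 6 of 9 genes were higher and 2 lower in tumors (median 0.69). Here too the shares of all genes were 35% higher and 36.8% lower. Hspa1a (1.86 ± 0.24), Hspa1b (1.41 ± 0.15) and Dnajb1 (1.04 ± 0.08), all heat-inducible, rose, and St13 (-0.96 ± 0.07), an Hsp70 cochaperone, fell. Hspa1a and Hspa1b are near-identical genes that probe sets may not tell apart. Of 14 genes that control mitochondrial genes or stress responses, 7 rose and 4 fell. Atf5 (-1.55 ± 0.13), a factor of the mitochondrial stress response, and the coactivators Ppargc1b (-0.96 ± 0.16) and Ppargc1a (-0.92 ± 0.25) fell, and Yy1 rose (0.85 ± 0.07). Myc had signals of 125 to 144 in control tissue and of 97 to 298 in tumors (0.61 ± 0.18).

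In sorted basal cells the targeted gene was checked first. Myc had signals of 1479, 1677 and 1869 in the control pools and of 141, 428 and 42.3 in the Myc-deficient pools, with a log2 difference of -3.40 ± 0.54. Whether the probe set lies in the deleted part was not given. Even this difference was not called after adjustment (p = 0.251), and over the 9512 genes tested 0% were called, by limma and by the unequal-variance test alike.

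No member was therefore called in Myc-deficient cells, but their values lay mostly below zero. Of 36 genes, 31 had a negative difference, against 53% of all genes, and the median was -0.46, against -0.03. At an unadjusted p under 0.05, 9 members were lower and 0 higher, while 7.22% of all genes passed it and 4.53% were lower. In 9 members each Myc-deficient pool stood below each control pool, a pattern seen in 7.18% of all genes. The reverse was seen in 0 members and in 5.75% of all genes. By the ratio of medians that the methods used, over 2, 8 of the 36 were lower (22.2%) and 0 higher, with 9.33% of all genes lower and 5.6% higher. These 8 were Timm10, Timm10b, Timm17b, Timm8a1, Timm22, Pam16, Mtx2 and Tomm40l. The values named for sorted cells here were chosen after they were seen. For 6 members (Pmpcb, Timm44, Tomm20, Tomm22, Tomm7 and Tomm70a) the brightest probe set in sorted cells was not the one used in tissue. Members varied more between pools than between tissue samples, with median coefficients of variation of 34.8% in control and 33.8% in Myc-deficient pools.

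The small TIM chaperones had the lowest values. Timm10 had signals of 388, 554 and 693 in control pools and of 73.5, 75.6 and 101 in Myc-deficient pools. The log2 difference was -2.47 ± 0.34 (adjusted p = 0.156), and the groups were far apart. Timm10b had 153, 184 and 191 against 45.4, 6.38 and 17.5 (-2.42 ± 0.45, adjusted p = 0.294). As 2 Myc-deficient pools were below background, its size is a bound, and with signals under 30 set to 30 it was -2.35 (adjusted p = 0.543). Timm8a1 had 594, 1198 and 777 against 260, 285 and 475 (-1.28 ± 0.34, adjusted p = 0.555). Timm9, dim throughout, had 37.6, 69 and 33.1 against 20, 7.37 and 20.3, all 3 below background, and was at least 1.47-fold lower (adjusted p = 0.777). Over the 8 tested genes of this role the median log2 difference was -0.94.

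In the presequence translocase, Timm17b had signals of 435, 282 and 388 in control pools and of 39, 36.6 and 243 in Myc-deficient pools, where pool 3 stood near the controls (-2.06 ± 0.54, adjusted p = 0.558). Its other probe set overlapped, with 74.1, 112 and 134 against 47.7, 35.5 and 135. Timm44 had 191, 330 and 179 against 101, 102 and 99.3 (-1.05 ± 0.36, adjusted p = 0.707). Timm23 had 637, 788 and 461 against 485, 528 and 559 with overlap (-0.23 ± 0.28). Without Myc-deficient pool 3, Timm10 (-2.59) and Timm17b (-2.82) were called lower (both adjusted p = 0.0391), with 10 probe sets called in all. The pool left out there had the lowest Myc signal of the Myc-deficient pools (42.3, against 141 and 428).

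At the gate the median log2 difference of 7 genes was -0.35. Tomm22 had 865, 1141 and 920 against 261, 862 and 576 (-0.91 ± 0.37, adjusted p = 0.754), without overlap. The probe set that rose in tumors overlapped here, with 133, 209 and 212 against 130, 158 and 150 (-0.28 ± 0.35). Tomm40l was lower in each Myc-deficient pool (-1.06 ± 0.45, adjusted p = 0.761). Tomm20 had 739, 1186 and 882 against 622, 965 and 848 (-0.20 ± 0.28), Tomm70a 577, 1165 and 646 against 449, 704 and 697 (-0.32 ± 0.32), and Tomm40 50, 56.6 and 112 against 76.5, 34.1 and 30.1 (-0.51 ± 0.45). With these probe sets the 3 genes overlapped between the groups. The probe set used for Tomm70a in tissue did not, with 165.3, 128.5 and 252.4 against 104.1, 106.9 and 89.57. Within same-numbered pools, by the brightest probe sets, Tomm20 was lower in 3 of 3 pairs, and Tomm70a and Tomm40 in 2 of 3.

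Hspd1 had signals of 3607, 3311 and 5302 in control pools and of 3910, 2943 and 5322 in Myc-deficient pools (-0.02 ± 0.25), and Hspe1 3477, 2740 and 5726 against 3238, 1714 and 6103 (-0.23 ± 0.38). By these probe sets pool 2 was lowest and pool 3 highest in both groups for these subunits. The dimmer probe set of Hspe1 had 527, 1027 and 1567 against 500.2, 212.9 and 1150. It was lower in each same-numbered Myc-deficient pool, with overlapping groups. Hspa9 had 1313, 1502 and 1470 against 1500, 1922 and 1570 (0.21 ± 0.22), and Trap1 444, 280 and 420 against 276, 235 and 305 (-0.45 ± 0.31). Within same-numbered pools, by the brightest probe sets, Hspa9 was higher in 3 of 3 pairs and Trap1 lower in 3 of 3. How many of all genes agree in this way was not counted. With the pool number as a block neither was called. The next probe set of Hspa9 had 723.7, 846.4 and 425.5 against 562.1, 706.4 and 571.4, lower in pools 1 and 2 and higher in pool 3. The dimmer probe set of Trap1 had 115, 71.4 and 100 against 136, 71.7 and 92.3.

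**Figure D4:**
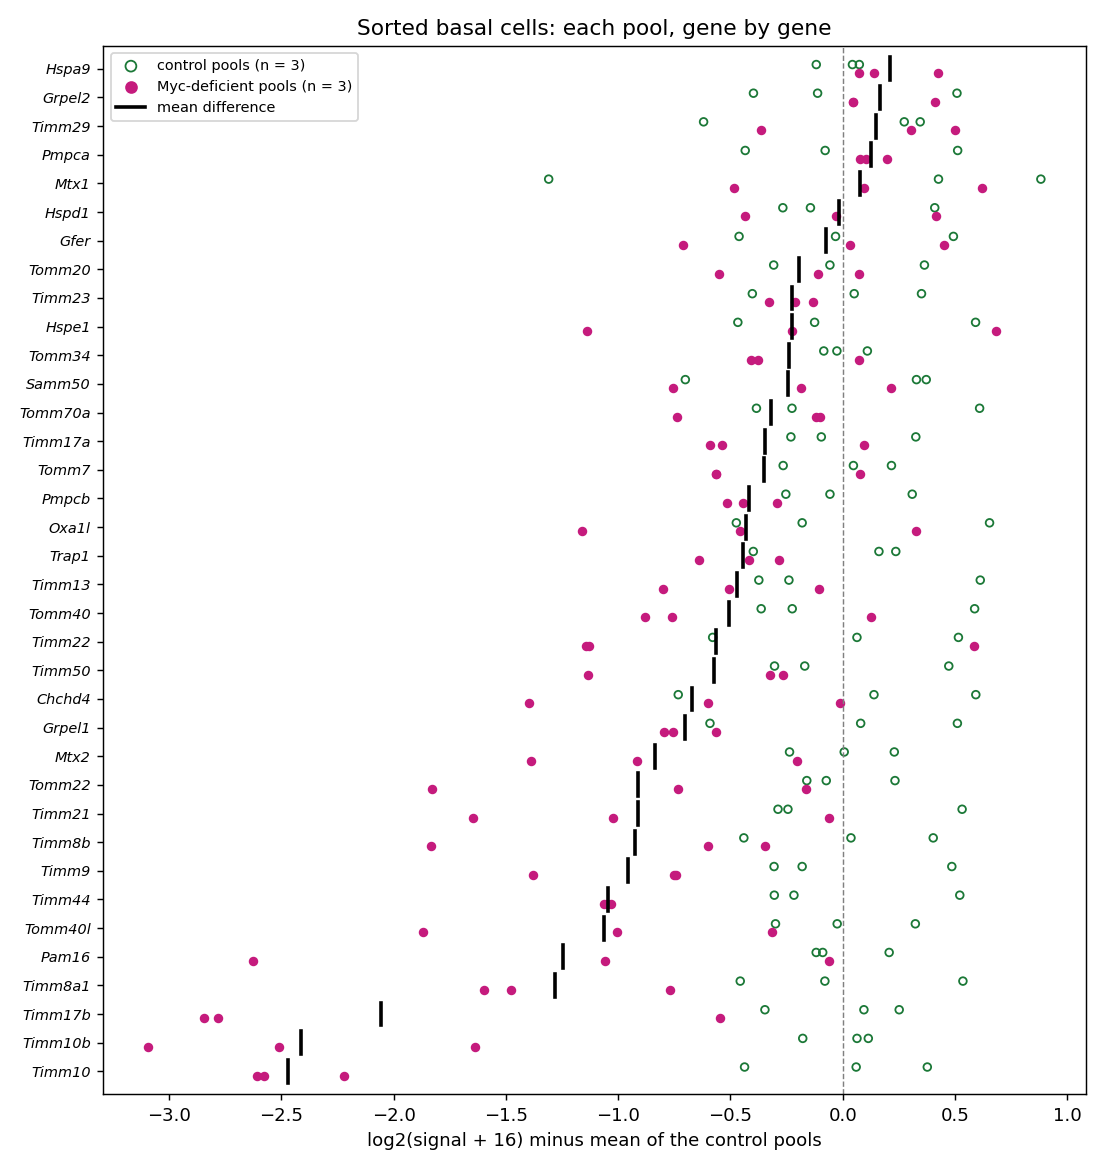
For each of the 36 tested genes, ordered by the mean difference (black bars), log2(signal + 16) of each control pool (open circles, n = 3) and each Myc-deficient pool (filled circles, n = 3) minus the mean of the control pools. Timm10, Timm10b and Timm8a1 stand to the left with no overlap, Timm17b has 1 pool near the controls, and 5 genes at the top have a mean difference above zero.

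The other lists were also without a call in sorted cells. Their median log2 differences were -0.37 for the 8 genes that shape the inner membrane, -0.43 for 10 peptidases and proteases, -0.05 for 14 other import factors, 0.18 for 9 cytosolic chaperones and 0.06 for 11 genes of transcriptional control. Lonp1 (-0.95 ± 0.33), Clpp (-0.95 ± 0.38) and Apool (-1.36 ± 0.41), an inner membrane organiser, were among the lowest.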

How the data were processed

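RNA of 25 tissue samples and 6 pools of sorted cells was hybridised to 1-colour Affymetrix Mouse Genome arrays with 45101 probe sets, of which 64 controls were left out. The deposited values are linear intensities that the authors computed with MAS5 (the submitters' processing notes also name Affymetrix Expression Console, version not given in the sources used here). Each array is scaled to a trimmed mean of 100, so a change of total RNA is not seen. The number of arrays limits the precision. Symbols came from the platform's table: 34945 probe sets have 1, 932 several and 9160 none. All columns of the table were used, and no arrays were identical.

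Groups were taken from the labels. Log2(signal + 16) was tested with limma 3.58.1 (R 4.3.3, lmFit, contrasts.fit, eBayes with trend), the 25 tissue arrays in one fit and the 6 sorted pools in another. Probe sets whose higher group median was at least 30 were tested, with Benjamini-Hochberg adjustment over all of them and calls at 0.05. A difference on this scale understates changes of low signals. A gene is represented by its brightest probe set. For a number of genes, other probe sets that differ are given beside the gene, but not for all genes or in every comparison. Per-sample signals are given for Hspd1, Hspe1, Hspa9, Trap1, Tomm20, Tomm40, Tomm70a, Timm23, Timm44, Timm9 and Timm10, for the called members with the largest differences in tissue, and for Myc. The members and lists were chosen with earlier results of these data known, so counts over lists are descriptions.

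In sorted cells, same-numbered pools deviated together (correlations of 0.221, 0.231 and 0.259 over 19737 probe sets), so the numbers of the labels may pair them. The methods name no pairing, and the errors and p-values given for sorted cells come from the fit without it. With the pool number as a block 0 members were called. Tissue numbers did not pair samples. The scripts were tested on simulated data. Other offsets, floors, filters, normalization, tests, blocks and left-out samples were tried.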

Additional observations from a re-analysis of the deposited data

Results flagged for a closer look

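Single samples stood far from the rest of their group in 6 of the 108 groups of a gene examined, and chance gives about 1 in 20. Grpel1 was 359.4 in control tissue 4, against 573.6 to 616 in the other control samples. In large hyperplasia 1, Gfer was 135 (others 178.6 to 192.2) and Timm29 338.2 (others 186.8 to 214.1). In large hyperplasia 5, Timm17a was 552.7 (others 436.7 to 463.4) and Tomm34 249.1 (others 213.6 to 216.9). Timm44 was 435 in small hyperplasia 5, against 263.3 to 311.8 in the others.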

How the results depend on the processing

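The methods' fold rule, a ratio of medians over 2, left 2 higher and 2 lower members in tumors against control tissue, 0 and 0 in every other tissue comparison, and 8 lower in sorted cells. The methods' unequal-variance test gave, against control tissue, 2 higher in large and 1 higher and 3 lower in small hyperplasias, 3 lower in tumors against large hyperplasias, and 0 higher and 1 lower in large against small. Over all probe sets it called 4576 higher and 3880 lower in large hyperplasias (6155 and 4822 by limma) and 1990 and 1715 in small ones (3945 and 3388). For tumors against large hyperplasias the counts were 4944 and 7852 (4979 and 7821), and for large against small 220 and 198 (1175 and 1084). Testing all probe sets gave 2 lower in large against small hyperplasias, with 803 higher and 787 lower over all 45037. In large hyperplasias against control tissue the unequal-variance test lost Grpel1, Hspd1, Hspe1, Pam16, Timm13, Timm17b and Timm50 and gained Tomm40. With the replicate number as a block, which may pair sorted pools only, tumors against large hyperplasias had 6 higher and 2 lower, and the counts of the other comparisons stayed within 1.5 times. All probe sets then had 3943 higher and 5656 lower between tumors and large hyperplasias. Without 4 tumors high in skeletal muscle markers, chosen after seeing the data, 3 were lower in tumors than in large hyperplasias, with 4580 higher and 7245 lower over all probe sets. The cause was not tested.

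Leaving out each sample in turn gave 8 to 9 higher and 15 to 19 lower members in tumors, 3 to 7 and 15 to 18 in large and 3 to 7 and 6 to 9 in small hyperplasias, each against control tissue. It gave 8 to 11 and 3 to 7 in tumors against large hyperplasias and 0 to 1 and 2 to 6 in large against small. In sorted cells it gave 0 to 0 higher and 0 to 2 lower, both lower calls without Myc-deficient pool 3. Counts moved by over 1.5 times without large hyperplasia 1 (7 higher against control tissue), control sample 4 (3 higher in small hyperplasias) and large hyperplasia 4 or 5 (3 lower in tumors against these). Over all probe sets the same counts were 5931 (6155 with all samples), 3622 (3945), and 7299 and 7271 (7821). Between the hyperplasias 2 were lower without small hyperplasia 3 or 4 or large hyperplasia 1, 2 or 3, and 0 higher without small 1 or 4 or large 1 or 2. Over all probe sets the counts there ranged from 513 to 1455 higher and from 685 to 1245 lower as single samples were left out. Of 4104 values of the 36 tested genes under these alternatives, 118 lost and 66 gained a call. Values averaged over a gene's probe sets were not tested for a call. Among these averages 63 moved by over 1 standard error, a shift that was looked for only there. The remaining 3857 values changed by neither rule. No called value changed sign. The 128 ratios of the 4 pairs recomputed kept direction, all 120 alternatives within 1 SD. Depth is not defined for arrays, and signals under 30, such as those of Timm9 in Myc-deficient pools, give bounds only.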
